A study of Mus musculus with 9 samples.

Results

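The pentose phosphate pathway is the side route of glucose metabolism that makes ribose 5-phosphate for nucleotides and NADPH for biosynthesis and redox defence. Its oxidative branch runs from glucose 6-phosphate to ribulose 5-phosphate, and its reversible non-oxidative branch exchanges pentose phosphates with fructose 6-phosphate and glyceraldehyde 3-phosphate. PRPP synthetases activate ribose 5-phosphate to phosphoribosyl pyrophosphate (PRPP), which purine salvage, pyrimidine synthesis and NAD synthesis consume. Inosine is a nucleoside whose ribose can enter this pathway as ribose 1-phosphate, once purine nucleoside phosphorylase has released the base hypoxanthine, and proliferating T cells draw on the pathway for both products.

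The 9 genes described here were taken by their symbols from the 20618 genes of the deposited tables, and each of the 9 was present. Pgls and Pgd belong to the oxidative branch, and Rpia, Rpe, Tkt and Taldo1 to the non-oxidative branch. Prps1 and Prps2 encode PRPP synthetases, and Rbks encodes ribokinase, which phosphorylates free ribose. The rule goes by symbol and uses no measured value. Levels are given in FPKM, which scales fragment counts by gene length and library size, and all 9 genes had a mean above 1 FPKM.

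Libraries came from wild-type mouse CD8+ T cells, labelled as primary cells, that were cultured for 24 h with dialyzed FBS and sorted for live cells. The first group of 3 libraries had 2 mM inosine together with hypoxanthine, the second group of 3 had 2 mM inosine alone, and the last group of 3 had 2 mM glucose. The labels give the hypoxanthine dose with its unit prefix missing, so the dose is left out here. All groups are wild type and carry the same batch label, the labels give neither the strain nor the age of the mice, and nothing in them ties the replicates of a medium to different animals or cultures, so p-values measure only the spread between these libraries.

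Reads assigned to genes, as recovered from the deposited means, ranged from 33736028 to 43453433 per library with hypoxanthine, from 34242426 to 40922988 in inosine alone and from 29660828 to 48173932 in glucose. The lowest share of FPKM from mitochondrial genes was 4.03% and the highest 6.5%. Replicate 2 in inosine alone had 6.5% and replicate 2 with hypoxanthine 5.84%, and none of the other 7 libraries exceeded 4.82%. The T cell markers Cd3d, Cd3e, Cd3g, Cd8a, Cd8b1, Cd2 and Lck were all detected, with summed levels of 1320 to 1400 FPKM with hypoxanthine, 815 to 1040 FPKM in inosine alone and 884 to 953 FPKM in glucose. Of these 7 markers, 5 rose with hypoxanthine against inosine alone, Lck fell and Cd2 did not pass the test. Summed markers were at most 0.072 FPKM for CD4 T cells, 0.241 FPKM for natural killer cells, 0.285 FPKM for erythroid cells and 1.83 FPKM for B cells. The 5 myeloid markers, mostly Cd14, summed to 0.108 to 0.144 FPKM with hypoxanthine, 0.397 to 0.577 FPKM in inosine alone and 0.24 to 0.465 FPKM in glucose, and Cd14 fell against both media (limma adjusted p = 0.0036 and 0.025). The fibroblast and epithelial markers, mostly Epcam, summed to 2.13 to 2.2 FPKM with hypoxanthine, 1.2 to 1.4 FPKM in inosine alone and 1.21 to 1.6 FPKM in glucose, and the part of any of these shifts in the results below was not tested. In bulk RNA, fewer cells that express a gene and less of its RNA per cell cannot be told apart.

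More of these genes fell than rose with hypoxanthine against inosine alone. Of the 9 genes, 5 fell (Pgd, Rpia, Rpe, Taldo1 and Prps1), Pgls alone among the 9 rose, and Tkt, Prps2 and Rbks did not pass a limma adjusted p of 0.05. Over all 20618 genes the same test called 21.3%, with 11.7% higher and 9.59% lower. Among the 9947 genes averaging 1 FPKM or more, where all 9 lie, 32.9% were called, 16.9% higher and 16% lower. The libraries of these media did not overlap for 7 of the 9 genes, 2 higher and 5 lower, and for 49.3% of those 9947 genes. On the log2(FPKM + 1) scale the 9 genes had a median difference of -0.34, and the 9947 genes had one of 0.02. Against glucose, 4 fell, Pgls and Rbks rose and 3 did not pass, while 20.3% of all genes were called, 10.8% higher and 9.55% lower, and 30.9% of the 9947 (15% higher and 15.9% lower). Libraries then did not overlap for 8 of the 9 genes, 3 higher and 5 lower, and for 55% of the 9947. The median of the 9 genes was -0.26, beside 0 over the 9947. These comparisons share the 3 libraries with hypoxanthine, so the second is not independent of the first. Without hypoxanthine replicate 1 or 3, 3 of the 9 were called in each of these comparisons, and without any 1 of the 3 glucose replicates the count against glucose was also 3. Differences on this scale understate the change of low genes.

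**Figure D1:**
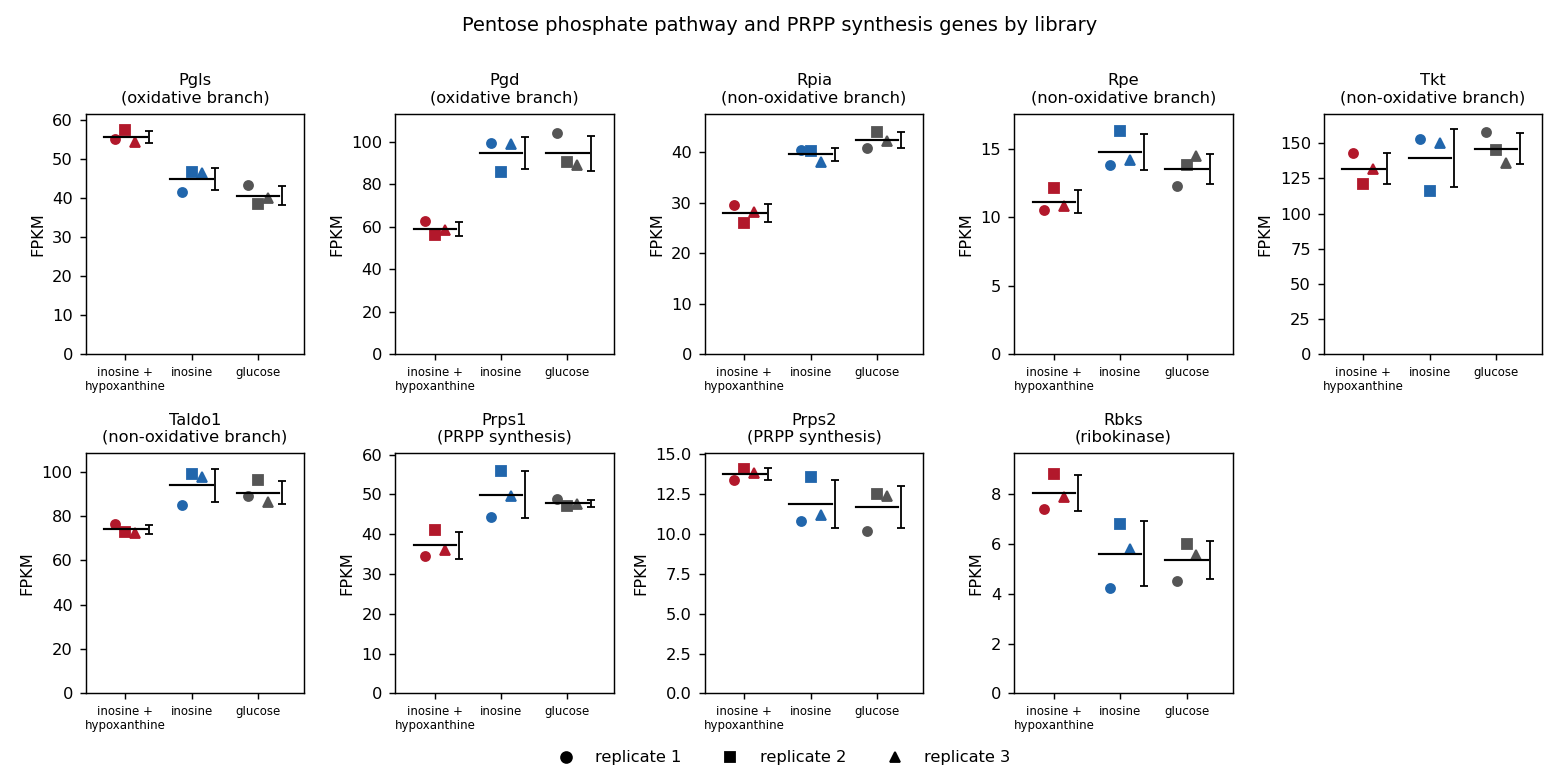
FPKM (vertical axes, each from 0) of the 9 pathway genes in each library of the 3 media; symbols mark the replicate number, horizontal lines the mean and error bars 1 SD (n = 3). Pgd with hypoxanthine sits between 55.9 and 62.5 FPKM, below all 6 other libraries, while Pgls sits between 54.4 and 57.4 FPKM, above all of them, and the media overlap for Tkt.

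In the oxidative branch, Pgd fell and Pgls rose. Pgd, 6-phosphogluconate dehydrogenase, makes NADPH and releases ribulose 5-phosphate. Its levels were 62.5, 55.9 and 58.6 FPKM with hypoxanthine, 99.3, 85.7 and 98.7 FPKM in inosine alone and 104, 90.4 and 89.2 FPKM in glucose, with a wide gap between the hypoxanthine libraries and the rest. The mean with hypoxanthine was 0.624 times that in inosine alone and 0.624 times that in glucose. The difference was -0.67 ± 0.09 in each comparison (limma adjusted p = 0.0012 in each), the largest fall of the 9 genes, and it was called under all 18 other settings tried.

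Pgls encodes 6-phosphogluconolactonase, which opens the lactone ring and so makes the 6-phosphogluconate that Pgd uses. It had 55.2, 57.4 and 54.4 FPKM with hypoxanthine, 41.7, 46.6 and 46.5 FPKM in inosine alone and 43.4, 38.5 and 40 FPKM in glucose. Every library with hypoxanthine exceeded every other library. The rise was 0.3 ± 0.07 against inosine alone (limma adjusted p = 0.017) and 0.45 ± 0.07 against glucose (limma adjusted p = 0.003). Against inosine alone the call was lost under median-of-ratios scaling (limma adjusted p = 0.056) and without hypoxanthine replicate 1 (0.05) or 2 (0.051). Since Pgls and Pgd moved in opposite directions, their ratio set the hypoxanthine libraries apart from the rest. Pgls FPKM over Pgd FPKM was 0.947 ± 0.0749 with hypoxanthine, 0.479 ± 0.0623 in inosine alone and 0.431 ± 0.0163 in glucose (SD, n = 3 each), and the last 2 media overlapped. This ratio was picked after its values were seen and was not tested.

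Reads of overlapping genes could enter these counts, and the strand used in counting is not stated. In the GENCODE annotation of GRCm38, Pgls at chr8:71592176-71601092 on the plus strand shares 776 of its exonic bases (20.58%) with Niban3, annotated there as Fam129c, on the same strand. Niban3 had 0.77 to 0.835 FPKM with hypoxanthine, 0.343 to 0.51 FPKM in inosine alone and 0.282 to 0.43 FPKM in glucose. Like Pgls, it was higher in every hypoxanthine library than in the rest. The part of reads from the shared bases in the Pgls values was not tested. Pgd lies at chr4:149149991-149166771 on the minus strand, and 1.1% of its stretches occur elsewhere among annotated transcripts.

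The promoters of Pgd and Pgls are shown because these neighbouring steps moved in opposite directions. Both are from RefSeq on GRCm38.p6, run from 250 bases before to 50 bases after the annotated start and read 5′ to 3′ on the gene's strand, with capitals marking GGGCGG (the GC box, bound by Sp1-like factors) on either strand. For Pgd the start at chr4:149166656-149166955 (minus strand) is given, and for Pgls chr8:71591934-71592233 (plus strand).
Pgd: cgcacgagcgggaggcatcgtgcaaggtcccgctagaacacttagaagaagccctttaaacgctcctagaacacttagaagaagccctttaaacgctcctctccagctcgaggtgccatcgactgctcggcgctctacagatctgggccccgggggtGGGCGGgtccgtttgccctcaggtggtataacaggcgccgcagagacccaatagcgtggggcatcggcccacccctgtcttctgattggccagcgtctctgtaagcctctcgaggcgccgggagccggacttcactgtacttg
Pgls: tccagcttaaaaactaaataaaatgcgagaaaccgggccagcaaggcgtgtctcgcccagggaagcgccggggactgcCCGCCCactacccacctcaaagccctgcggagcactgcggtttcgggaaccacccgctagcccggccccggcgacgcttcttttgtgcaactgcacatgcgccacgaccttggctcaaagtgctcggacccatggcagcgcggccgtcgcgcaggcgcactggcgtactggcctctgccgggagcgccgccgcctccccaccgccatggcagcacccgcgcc
Each holds 1 GC box. The Pgd promoter also holds 2 CCAAT boxes and the Pgls promoter none. RefSeq lists a further Pgd start downstream, which has no GC box.

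Against inosine alone, both pentose phosphate isomerising enzymes and transaldolase of the non-oxidative branch fell, while transketolase did not pass the test. Rpia, which converts ribulose 5-phosphate to ribose 5-phosphate, had 29.6, 26 and 28.1 FPKM with hypoxanthine, 40.4, 40.2 and 38 FPKM in inosine alone and 40.9, 44 and 42.2 FPKM in glucose. Its hypoxanthine libraries stood far below the others. The difference was -0.49 ± 0.07 against inosine alone (limma adjusted p = 0.0013) and -0.59 ± 0.07 against glucose (limma adjusted p = 0.00059), and both were called under all 18 other settings. Rpia lies at chr6:70765720-70792232 on the minus strand, and 5.6% of its 50-base stretches occur in transcripts of other genes.

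Rpe, the epimerase that turns ribulose 5-phosphate into xylulose 5-phosphate, had 10.5, 12.1 and 10.8 FPKM with hypoxanthine, 13.8, 16.3 and 14.2 FPKM in inosine alone and 12.3, 13.8 and 14.5 FPKM in glucose. The hypoxanthine libraries were below all others, by a narrow margin against glucose. The difference from inosine alone was -0.38 ± 0.09 (limma adjusted p = 0.02), a call lost without hypoxanthine replicate 1 (0.073) or 3 (0.077). The difference from glucose was -0.26 ± 0.09 and did not pass (limma adjusted p = 0.077), although 5 of the 18 other settings called it, with adjusted p from 0.031 to 0.047. Rpe at chr1:66700831-66719805 (plus strand) shares 558 exonic bases (17.92%) with Kansl1l on the other strand, whose mean over all libraries was 0.339 FPKM.

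Taldo1, transaldolase, moves 3-carbon units between sugar phosphates. Its levels were 76.4, 73 and 72.5 FPKM with hypoxanthine, 85.1, 98.9 and 97.5 FPKM in inosine alone and 89.2, 96.2 and 86.3 FPKM in glucose, with no overlap between the hypoxanthine libraries and the rest. It fell against inosine alone (-0.34 ± 0.08, limma adjusted p = 0.015) and against glucose (-0.29 ± 0.08, limma adjusted p = 0.029). The first call was lost without hypoxanthine replicate 3 (0.061) or inosine replicate 3 (0.058), and the second without any 1 of the 6 libraries compared (0.051 to 0.1). Without the 2 libraries of highest mitochondrial share neither call held (0.073 and 0.057). Taldo1 lies at chr7:141392199-141402968 on the plus strand, and 10.9% of its stretches also occur in Gm17823, which is not analysed here.

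Tkt, the thiamine-dependent transketolase that moves 2-carbon units and links the pathway to glycolysis, was the most abundant of the 9 genes in each medium. It had 143, 121 and 132 FPKM with hypoxanthine, 153, 116 and 150 FPKM in inosine alone and 158, 145 and 136 FPKM in glucose. The media overlapped, and replicate 2 was the lowest library both with hypoxanthine and in inosine alone. The difference was -0.07 ± 0.12 against inosine alone (95% interval -0.34 to 0.2, limma adjusted p = 0.73) and -0.15 ± 0.12 against glucose (-0.42 to 0.12, limma adjusted p = 0.44). Falls as large as those of Rpia lie outside both intervals, and falls of the size seen for Taldo1 lie at or inside their edges. Tkt lies at chr14:30548359-30574720 on the plus strand, and none of its 50-base stretches occur in another annotated transcript.

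The 4 non-oxidative genes summed to 245 ± 14 FPKM with hypoxanthine, 287 ± 14.6 FPKM in inosine alone and 293 ± 12.2 FPKM in glucose. With hypoxanthine the highest sum was 260 FPKM, below the lowest sum elsewhere of 271 FPKM. Tkt made up 31.5% ± 1.83 of the summed FPKM of the 9 genes with hypoxanthine, 28.2% ± 3.58 in inosine alone and 29.7% ± 1.18 in glucose (SD, n = 3 each), and these shares overlapped. Neither the sums nor the shares were tested.

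**Figure D2:**
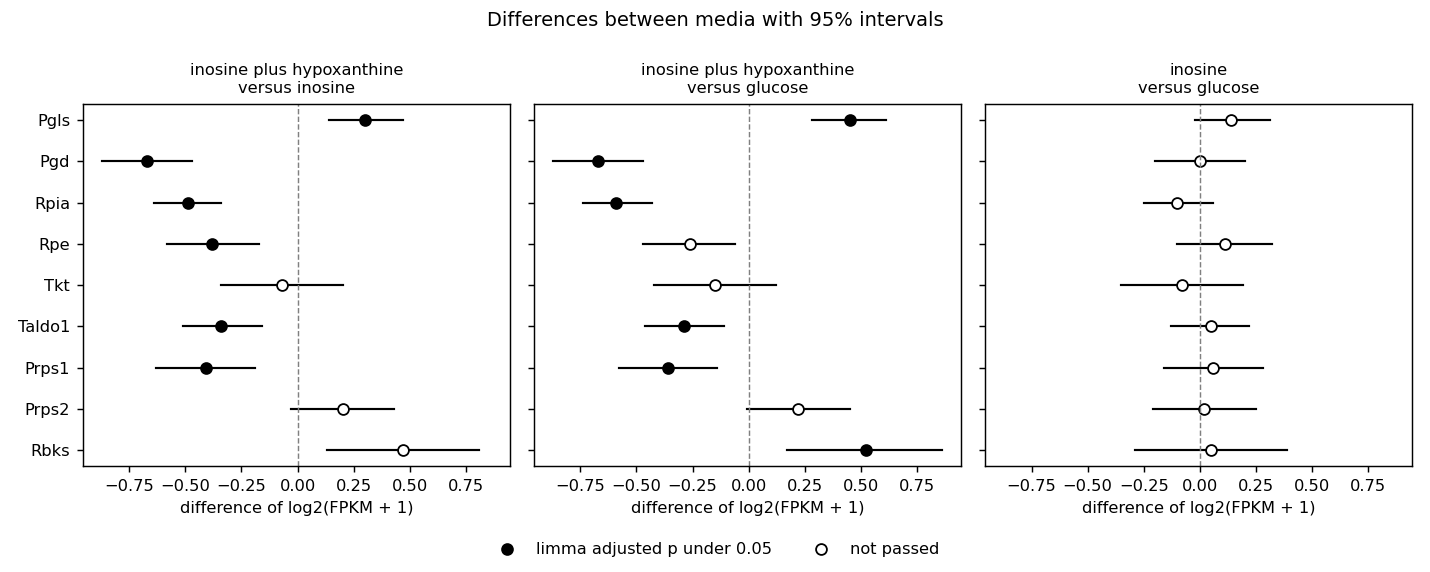
Differences between media on the log2(FPKM + 1) scale (horizontal axes) for the 9 genes, with 95% intervals from limma; filled circles passed an adjusted p of 0.05 and open circles did not. Pgd lies at -0.67 in both panels with hypoxanthine and Pgls at 0.3 and 0.45, and no gene passed in the panel of inosine against glucose.

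Of the 2 genes for PRPP synthetase, Prps1 fell and Prps2 did not pass the test. Prps1, whose product transfers pyrophosphate from ATP to ribose 5-phosphate, had 34.4, 41 and 36.1 FPKM with hypoxanthine, 44.2, 55.9 and 49.7 FPKM in inosine alone and 48.8, 47 and 47.5 FPKM in glucose. Each hypoxanthine library lay below each of the 6 others. It fell against inosine alone (-0.41 ± 0.1, limma adjusted p = 0.016) and against glucose (-0.36 ± 0.1, limma adjusted p = 0.031). The first call was lost in a fit of only those media (0.052) and without hypoxanthine replicate 1 (0.063) or 3 (0.065) or inosine replicate 3 (0.052). The second was lost without hypoxanthine replicate 1 (0.1) or 3 (0.1), inosine replicate 3 (0.051) or glucose replicate 1 (0.086), 2 (0.069) or 3 (0.083).

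Prps2, the second isoform of the enzyme, had 13.4, 14.1 and 13.8 FPKM with hypoxanthine, 10.8, 13.6 and 11.2 FPKM in inosine alone and 10.2, 12.5 and 12.4 FPKM in glucose. The libraries with hypoxanthine were above all glucose libraries, and inosine replicate 2 lay among them. Neither difference passed: it was 0.2 ± 0.1 against inosine alone (95% interval -0.03 to 0.43, limma adjusted p = 0.22) and 0.22 ± 0.1 against glucose (-0.01 to 0.45, limma adjusted p = 0.17). Prps2 made up 27.1% ± 1.38 of the summed Prps1 and Prps2 FPKM with hypoxanthine, 19.2% ± 0.635 in inosine alone and 19.7% ± 2.09 in glucose (SD, n = 3 each). The lowest share with hypoxanthine, 25.5%, was above the highest elsewhere, 21.1%. The related gene Prps1l3 is not in that sum, although its mean over all libraries was 14.2 FPKM, beside 12.4 FPKM for Prps2. These shares are therefore of 2 genes and not of all PRPP synthetase RNA. The difference of log2(Prps1 FPKM + 1) and log2(Prps2 FPKM + 1) averaged 1.37 with hypoxanthine, 1.98 in inosine alone and 1.95 in glucose. It was lower with hypoxanthine by 0.61 than in inosine alone and by 0.58 than in glucose, each with an exact two-sided permutation p of 0.1 (0.15 adjusted over 3 comparisons), and 0.1 is the smallest p that 3 libraries against 3 can give. Inosine alone differed from glucose by 0.04 (exact permutation p = 0.8).

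**Figure D3:**
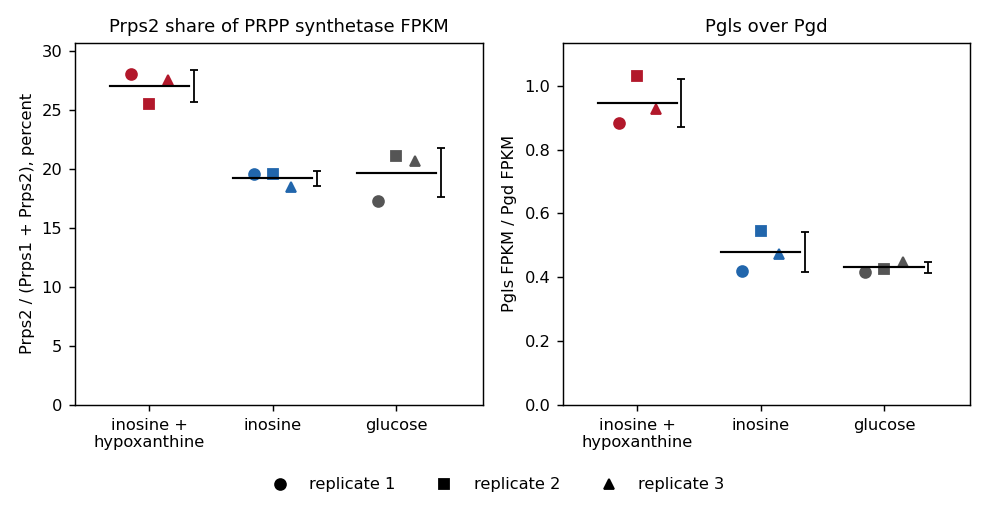
Left, Prps2 as a percent of Prps1 plus Prps2 FPKM; right, Pgls FPKM over Pgd FPKM, per library in each medium with means (lines) and 1 SD (bars, n = 3). Both ratios with hypoxanthine, 25.5% to 28.1% and 0.884 to 1.03, lie above every library of inosine alone and glucose. The related gene Prps1l3 is not counted in the left panel.

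Prps1 (chrX:140456613-140476140, plus strand) and Prps2 (chrX:167346322-167382749, minus strand) both lie on the X chromosome. Prps1 shares 10.1% of its 50-base stretches with Prps1l3, so reads could be split between them and the level of Prps1 is uncertain to that extent. Prps1l3 had 14.1, 15.9 and 15.8 FPKM with hypoxanthine, 12.3, 16.7 and 13.4 FPKM in inosine alone and 11.3, 14.8 and 13.9 FPKM in glucose. It did not pass against either medium (0.11 ± 0.13 and 0.19 ± 0.13, limma adjusted p = 0.6 and 0.37), and its means with hypoxanthine were the higher ones. Prps2 shares 0.1% of its stretches with other genes.

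The promoters of Prps1 and Prps2 are shown because Prps1 passed the test and Prps2 did not, which is no test of a difference between them. They were also picked because the windows differ in the motifs they hold, so that contrast follows from the choice. A link between motifs and levels was not tested. The windows are chrX:140456353-140456652 (plus strand) for Prps1 and chrX:167382700-167382999 (minus strand) for Prps2, from RefSeq on GRCm38.p6, with GC boxes in capitals as above.
Prps1: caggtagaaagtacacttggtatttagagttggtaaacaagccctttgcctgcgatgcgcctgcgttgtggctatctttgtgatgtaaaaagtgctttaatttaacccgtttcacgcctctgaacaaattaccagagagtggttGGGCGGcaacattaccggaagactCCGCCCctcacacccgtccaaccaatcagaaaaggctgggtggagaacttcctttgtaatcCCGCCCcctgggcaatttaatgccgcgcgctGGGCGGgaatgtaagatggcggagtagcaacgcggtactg
Prps2: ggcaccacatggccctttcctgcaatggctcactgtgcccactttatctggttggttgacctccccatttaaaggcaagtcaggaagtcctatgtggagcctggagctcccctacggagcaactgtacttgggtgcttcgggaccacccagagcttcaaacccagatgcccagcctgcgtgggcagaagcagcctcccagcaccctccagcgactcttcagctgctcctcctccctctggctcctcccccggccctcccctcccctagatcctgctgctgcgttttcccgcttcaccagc
The Prps1 window holds 4 GC boxes, 1 CCAAT box and 1 match to TGATGNAA, the core of an ATF4 composite element. The Prps2 window holds none of these. Across the 10 RefSeq promoters of the 9 genes, read on both strands, GGGCGG occurred in 8, CCAAT in 4, TGACNNNGC (the core of the antioxidant response element) in 2 (Rbks and the downstream Pgd start), TGATGNAA in 1 and CACGTG (an E-box) in 0. Among 32817 mouse promoters of this length, 35.6% held GGGCGG, 37.4% CCAAT, 12.4% TGACNNNGC, 4.0% TGATGNAA and 7.1% CACGTG. GC boxes were in promoters of genes that fell against inosine alone (such as Rpia and Taldo1), of Pgls, which rose, and of Tkt, which did not pass and whose promoter holds 5. A match is a run of letters and no measured binding site.

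Rbks, ribokinase, was the lowest of the 9 genes in each medium, with 7.43, 8.84 and 7.91 FPKM with hypoxanthine, 4.25, 6.82 and 5.79 FPKM in inosine alone and 4.5, 6 and 5.57 FPKM in glucose. All libraries with hypoxanthine were above all others. These levels rest on 380 to 543 recovered reads per library with hypoxanthine, 210 to 400 in inosine alone and 190 to 381 in glucose. The mean was 1.43 times that in inosine alone (0.47 ± 0.15 on the log2 scale), which did not pass at a limma adjusted p of 0.057, and 1.5 times that in glucose (0.52 ± 0.15), which passed at a limma adjusted p of 0.041. Without inosine replicate 2, the library of highest mitochondrial share, the first difference was 0.6 (0.022), without inosine replicate 1 it was 0.31 (0.13), and without hypoxanthine replicate 2 it was 0.41 (0.16). The second call was lost without any 1 of the 6 libraries compared or without inosine replicate 3 (0.054 to 0.13), and without the 2 libraries of highest mitochondrial share (0.078). Rbks lies at chr5:31624439-31697627 on the minus strand, and none of its stretches occur in another annotated transcript.

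Replicate 2 of the libraries with hypoxanthine and of those in inosine alone took the same place for many of these genes. Both were the highest of their medium for Pgls, Rpe, Prps1, Prps2 and Rbks and the lowest for Pgd and Tkt. Both also had the highest mitochondrial shares, and the part of that share in these values was not tested. Leaving out both libraries kept the direction of all 9 differences between the hypoxanthine and inosine media.

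Inosine in place of glucose gave no call among the 9 genes. The same limma test found 0 of 9 at an adjusted p under 0.05, 0 of 9 at an unadjusted p under 0.05, and 0 of 9 with limma voom on recovered reads, and the authors' deposited table has 0 of 9 at an adjusted p under 0.05. Over all 20618 genes 2 were called (0.0097%), and 584 (2.83%) had an unadjusted p under 0.05. None of the 9947 genes averaging 1 FPKM or more was called (0%). Rpia was the only one of the 9 whose libraries did not overlap between these media, beside 5.13% of the 9947 genes. It was lower in inosine by 0.1 ± 0.07 on the log2 scale (95% interval -0.25 to 0.06). Pgls had the largest difference, 0.14 ± 0.07 (-0.02 to 0.31). The interval for Pgd ran from -0.2 to 0.2 and that for Rbks from -0.29 to 0.39, and the change of Pgd with hypoxanthine lies outside the interval of Pgd.

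Levels kept much of their order from medium to medium. Tkt was highest and Rbks lowest in each medium. Pgd was 2nd in inosine alone and in glucose, where it overlapped Taldo1, but 3rd with hypoxanthine, where it lay below Taldo1 and overlapped Pgls. Pgls was 4th with hypoxanthine, 5th in inosine alone and 6th in glucose. Prps2 was above Rpe with hypoxanthine, below it in inosine alone, and overlapped it in glucose. Other neighbours whose libraries overlapped were Prps1 and Pgls in inosine alone, and Rpia and Pgls in glucose.

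In the authors' deposited tables, 6 of the 9 genes had an adjusted p under 0.05 with hypoxanthine against inosine alone, and 7 against glucose. The share of all genes that passed in the authors' test was not counted here, so these counts have no background beside them. Their log2 fold changes, taken as the hypoxanthine medium over the other, ran from -0.721 to 0.456 against inosine alone and from -0.706 to 0.563 against glucose, and 0 of 9 exceeded 1 in size in any comparison.

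By profile over the 9 libraries, the 5 genes most like Pgd among the 9947 were Bop1, Mindy1, Calr, Ddx56 and Hspa9, whose mean-centred log2(FPKM + 1) values differed from those of Pgd by a root mean square of 0.0425, 0.0458, 0.0488, 0.0559 and 0.0559. The spread of Pgd about its own mean was 0.328 on the same scale. Calr, for example, had 353 FPKM with hypoxanthine, 531 FPKM in inosine alone and 549 FPKM in glucose. The 5 most like Tkt were Itpk1, Dhx16, Lysmd1, Tpst2 and Gsk3a, with values of 0.0404 to 0.0448 beside a spread of 0.143 for Tkt. Likeness here rests on libraries that share medium, depth and mitochondrial share.

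Relatives and regulators of these enzymes gave no call in limma. Of 8 listed genes 6 were analysed (H6pd, Prps1l1, Prps1l3, Prpsap1, Prpsap2 and Shpk), and Tktl1 and Tktl2 are not analysed here. H6pd, an enzyme of the endoplasmic reticulum that makes NADPH there, had 3.13 ± 0.249 FPKM with hypoxanthine, 4.06 ± 0.927 FPKM in inosine alone and 4.37 ± 0.239 FPKM in glucose (SD, n = 3 each), with limma adjusted p = 0.16 and 0.066 against those media. Its hypoxanthine libraries lay below all glucose libraries. The authors' deposited adjusted p for H6pd was 0.062 against inosine alone and 5.7e-05 against glucose. Prpsap1 and Prpsap2, proteins that associate with PRPP synthetase, differed by 0.2 ± 0.12 and -0.07 ± 0.07 against inosine alone (limma adjusted p = 0.32 and 0.54).

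Genes that bring ribose and other pentoses into the pathway gave 4 falls, 1 rise and 6 that did not pass among 11 with hypoxanthine against inosine alone (median -0.2). Over all genes 9.59% fell and 11.7% rose in that comparison, and over the 9947 genes 16% and 16.9%. Upp1, uridine phosphorylase, which releases ribose 1-phosphate from uridine, had 8.41, 9.51 and 8.53 FPKM with hypoxanthine, 27.4, 54.7 and 38.6 FPKM in inosine alone and 29.9, 45.7 and 38.4 FPKM in glucose. Its hypoxanthine libraries were far below the rest. The difference was -2.02 ± 0.23 against inosine alone (limma adjusted p = 0.00057) and -1.97 ± 0.23 against glucose (limma adjusted p = 0.00065). Pnp, which splits inosine itself, had 18.9 ± 1.3 FPKM with hypoxanthine, 26.7 ± 3.17 FPKM in inosine alone and 24.1 ± 0.563 FPKM in glucose (SD, n = 3 each), and it fell against both (limma adjusted p = 0.0066 and 0.031). Pgm1, a phosphoglucomutase, did not pass (32.9 ± 0.738 FPKM with hypoxanthine and 38.5 ± 6.83 FPKM in inosine alone). Pgm2, listed with it, had 7.28 ± 0.373 and 9.51 ± 0.565 FPKM in those media and fell (limma adjusted p = 0.0084). Against glucose Pgm2 did not pass (limma adjusted p = 0.056). Against glucose this list gave 2 falls, 1 rise and 8 that did not pass. Over all genes 20.3% were called in that comparison, and over the 9947 genes 30.9%, so calls in the list were about as frequent.

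At the junction with glycolysis, 1 of 16 analysed genes rose and 15 did not pass against inosine alone (median -0.06), with the same counts against glucose. Over all genes the test called 21.3% and 20.3% in these comparisons. Against glucose the libraries did not overlap for 5 of the 16 that were lower and 1 that was higher. That is no more than among genes at large. Of the 20618 genes 3668 were lower and 4086 higher without overlap, and 55% of the 9947 did not overlap. Of the 16 genes, 11 averaged 1 FPKM or more. G6pc3, a glucose 6-phosphatase, had 16.7 ± 2.39 FPKM with hypoxanthine, 11.6 ± 0.907 FPKM in inosine alone and 12.1 ± 1.45 FPKM in glucose (limma adjusted p = 0.02 and 0.033). Gpi1, which interconverts glucose 6-phosphate and fructose 6-phosphate, had 196 ± 9.73 FPKM with hypoxanthine and 244 ± 37.7 FPKM in inosine alone (limma adjusted p = 0.13), and Pfkp, a phosphofructokinase, had 68.7 ± 11.5 and 88.6 ± 12.5 FPKM in those media (limma adjusted p = 0.16). By the authors' deposited adjusted p, both were lower with hypoxanthine than in inosine alone (0.017 and 0.024) and than in glucose (0.0021 and 0.015). A miss in limma is therefore no sign that they were unchanged.

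In a list of 16 other genes drawn up around NADPH, 7 fell, 1 rose and 8 did not pass against inosine alone (median -0.31). Against glucose 10 fell, 1 rose and 5 did not pass. The list also takes in malic enzyme and folate genes whose products need not make or use NADPH, so these are not counts of NADPH enzymes. Over all genes 9.59% fell against inosine alone and 9.55% against glucose, and over the 9947 genes 16% and 15.9%. Of the 16 genes, 12 averaged 1 FPKM or more. Aldh1l2, among the falls against glucose, was near the floor, with 0.0368 FPKM with hypoxanthine and 0.113 FPKM in glucose. Idh1, the cytosolic NADP-dependent isocitrate dehydrogenase, had 1.59 ± 0.153 FPKM with hypoxanthine, 2.95 ± 0.266 FPKM in inosine alone and 2.88 ± 0.143 FPKM in glucose (limma adjusted p = 0.00088 and 0.0011). Me2, a mitochondrial malic enzyme, had 15.9 ± 0.286 FPKM with hypoxanthine and 22.2 ± 1.1 FPKM in inosine alone (limma adjusted p = 0.0021). Mthfd2, of mitochondrial folate metabolism, had 65.5 ± 4.32 and 91.9 ± 13.1 FPKM in those media (limma adjusted p = 0.028). Txnrd1, thioredoxin reductase, had 38.3 ± 4.03 and 49.9 ± 7.82 FPKM and did not pass (limma adjusted p = 0.065), whereas against the 54.9 ± 2.76 FPKM of glucose it fell (limma adjusted p = 0.019).

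Of 7 enzymes that use PRPP, 1 fell, 1 rose and 5 did not pass in each comparison with hypoxanthine (median -0.25 against inosine alone and -0.17 against glucose). Over all genes 21.3% were called against inosine alone and 20.3% against glucose, and over the 9947 genes 32.9% and 30.9%. Calls in this list were thus about as frequent as among genes at large. Aprt, which salvages adenine, had 109, 120 and 108 FPKM with hypoxanthine and 170, 205 and 178 FPKM in inosine alone. The media did not overlap, and the difference of -0.7 ± 0.09 passed (limma adjusted p = 0.00099). Hprt, which joins hypoxanthine itself to PRPP, had 109, 129 and 110 FPKM with hypoxanthine and 134, 152 and 128 FPKM in inosine alone. These values overlapped, and the difference of -0.25 ± 0.09 did not pass (limma adjusted p = 0.1). Qprt, of NAD synthesis from quinolinate, rose at a low level, with 1.35 ± 0.235 FPKM with hypoxanthine and 0.77 ± 0.213 FPKM in inosine alone (limma adjusted p = 0.028). In the comparison of inosine with glucose, 0 genes of these lists were called.

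**Figure D4:**
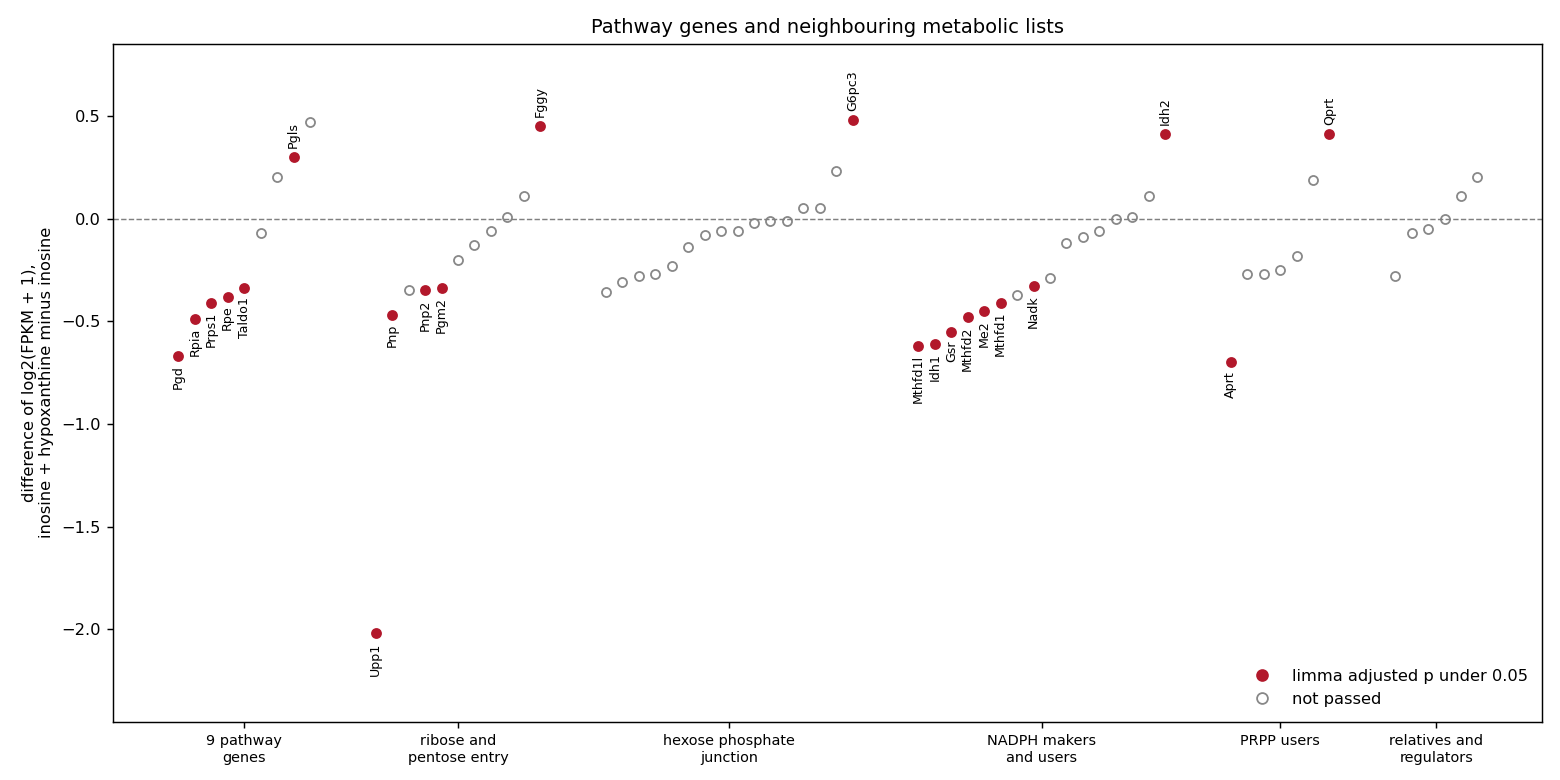
Differences on the log2(FPKM + 1) scale (vertical axis), inosine plus hypoxanthine minus inosine alone, for the 9 pathway genes and for each analysed gene of 5 neighbouring lists, ordered within a list; filled circles, named, passed a limma adjusted p of 0.05 and open ones did not. Of the 9 pathway genes 5 lie below 0 and 1 above it among those that passed, and 15 of 16 genes at the junction with glycolysis did not pass.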

How the data were processed

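RNA was sequenced in paired-end mode from 9 libraries, 3 per medium. Per the submitters' processing notes, the tools were DESeq2 1.38.3, Subread 2.0.1, featureCounts and HISAT2 and the genome mm10, with no role given for each. The authors deposited FPKM of every gene in every library, together with a mean signal for each medium that acts as size-factor-normalized reads averaged over 3 libraries. The tables also hold the authors' log2 fold changes, p-values and adjusted p-values, deposited for each pair of media. The strand used in counting is not given in the sources used here.

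All 20618 genes were fitted with limma 3.58.1 in R 4.3.3 (trend and robust settings) on log2(FPKM + 1), with a mean per medium over all 9 libraries (6 residual degrees of freedom) and no filter. Genes passed at a Benjamini-Hochberg adjusted p under 0.05, and "rose" or "fell" is used of called genes. Every adjusted p is from limma unless named as the authors'. The pipeline was tested on simulated data. Whole reads were recovered from the authors' 2 group means per medium, within 5e-05 of a whole number, for 20286 genes (98.39% of genes and 96.72% of FPKM), and served for depth and for limma voom. As a check, over 5053 genes with over 1000 reads in each library, FPKM per read varied between libraries by a median SD of 0.00416 on the log2 scale. The Prps1 to Prps2 difference was compared by exact permutation over libraries.

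Of the 10 genes in the set, 1 is not reported here. Named genes are the 9 genes, listed relatives, and of each neighbouring list the 2 of smallest adjusted p against inosine alone and the 2 of highest mean FPKM. Pgm2 was named in addition, beside Pgm1, with its values known. Most-alike genes are given for the member of smallest adjusted p against inosine alone and the member of highest FPKM. The members and lists were chosen with earlier results of these data known. Repeated and overlapping sequence was counted from GENCODE annotation of GRCm38 (mm10), and promoter sequences are RefSeq's. Other settings tried were a pseudocount of 0.1, a filter at 1 FPKM, rescaling by median of ratios or to a fixed total (TPM), fits of only the compared media, a replicate block, voom, and leaving out libraries. No table was used beyond those described.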

Additional observations from a re-analysis of the deposited data

How the results depend on the processing

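Over 18 other settings, none of the called differences of the 9 genes changed sign. Between inosine and glucose, where 0 of the 9 were called, the range of the difference crossed 0 for Pgd, Tkt, Prps1, Prps2 and Rbks. Between the hypoxanthine medium and inosine alone, Pgd and Rpia were called in all 18, and between it and glucose Pgls, Pgd and Rpia were. Leaving out 1 library in turn gave 2757 (without hypoxanthine replicate 3) to 4487 genes called and 3 to 7 of the 9 genes against inosine alone (4382 and 6 with all libraries), and 2677 (also without hypoxanthine replicate 3) to 4879 genes and 3 to 7 of the 9 against glucose (4192 and 6 with all libraries). For inosine against glucose it gave 1 to 7 genes in place of 2 and 0 of the 9. The difference between Prps1 and Prps2 ranged from -0.67 to -0.58, from -0.64 to -0.47 and from -0.02 to 0.14 in the 3 comparisons. Inosine against glucose gave 0 genes with a minimum mean of 1 FPKM, in a fit of only those media and with voom, and 1 without the 2 libraries of highest mitochondrial share. The labels do not say whether the replicate numbers pair libraries across media, and these values do not settle it. Same-number correlations of deviations from the medium means ran from -0.27 to 0.635. Of the 9 libraries, 6 correlated best with one of their own number. With the replicate number as a block, 4396 genes and 7 of the 9 were called against inosine alone, 4251 and 7 against glucose, and 1 and 0 for inosine against glucose. With the block in a fit of only the compared media these were 3924 and 6, 2110 and 4, and 0 and 0. Under the block Rbks passed against inosine alone (limma adjusted p = 0.0089) and Rpe against glucose (0.046), whereas with the block in a fit of only the compared media Taldo1 did not pass against inosine alone (0.061) or glucose (0.077), Prps1 did not pass against glucose (0.082), and Rbks passed against inosine alone (0.045). The cause of these shifts was not tested.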
